A study of Mus musculus with 12 samples.

Results

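Mueller glia homeostatic genes are the genes with which the radial glia of the retina recycle transmitters, buffer ions and water, carry retinoids and keep their identity. The 10 members, Glul, Rlbp1, Slc1a3, Aqp4, Kcnj10, Sox9, Sox2, Apoe, Dkk3 and Car2, were found by matching Ensembl identifiers to these symbols in the table of RNA gene counts. They are 10 of 53707 genes in the table, and all 10 are among the 21061 genes that passed the filter on low counts and were tested. RNA was measured in retinal explants of wild-type C57BL/6J mice at 28 days of age, freed of sclera and retinal pigment epithelium. All explants were kept for 48 hours in Neurobasal-A medium with B27 and N2 supplements and then for 1 hour in Krebs' Ringer medium, and the conditions differed in the glucose of the culture medium, 5 mM or 25 mM. Each condition had 3 biological replicates of 2 technical replicates, 12 libraries in all, with the first technical replicate of each in batch 1 and the second in batch 2. The labels do not say how many mice or retinas made up a replicate. The comparison addresses which genes respond to glucose availability in the cultured retina.

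Mueller glia span the retina from the vitreous to the photoreceptors. They take up glutamate released by neurons and convert it to glutamine, which is returned for transmitter synthesis. They conduct potassium away from active synapses together with water, and they bind retinoids for cone pigment renewal. Loss of these functions, with a rise of intermediate filaments, is a known feature of gliosis. The explants are whole neural retina, so that a lower value of a glial gene can come from fewer glial cells or from less RNA per cell, and these cannot be told apart in bulk samples.

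The estimated counts of a library totalled 17998905 to 36692484 at 5 mM glucose and 14815285 to 23129541 at 25 mM. The library of batch 1 from replicate 2 at 25 mM stood apart. Mitochondrial genes held 15.4% of its counts, while in the remaining 11 libraries they held 5.91% to 11.8%. Its Glul value was 194 CPM (counts scaled by library size with TMM factors), against 896 CPM in the second library of the same replicate. The summed level of 10 rod photoreceptor markers was 16750 CPM in that library and 5161 CPM in its partner. Results below sum both libraries of a replicate. With replicate 2 at 25 mM taken from the partner alone, edgeR called 0 of 20898 genes, with 4406 at an unadjusted p under 0.05, against 417 of 21061 called and 6052 at that p with both libraries. Of the 6 comparisons that leave out 1 replicate, 4 also called 0 genes, so every call given below is lost in these. Replicate 1 at 5 mM also stood apart, with values near those at 25 mM for Aqp4, Kcnj10, Sox2 and Apoe. The 10 members summed to 2198, 2300 and 2358 CPM at 5 mM and to 1842, 2023 and 2319 CPM at 25 mM, and these ranges overlap. As the members are the genes under study and some are also made by other cells, these sums do not measure the amount of Mueller glia.

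None of the 10 members passed an FDR (adjusted p) of 0.05 in the quasi-likelihood test of edgeR, where 1.98% of all genes tested did. At an unadjusted p under 0.05, 3 of the 10 passed (Aqp4 higher, Apoe and Dkk3 lower at 25 mM), against 28.7% of all genes. DESeq2 called 1 member, Apoe, at an FDR of 0.0269, and 16.6% of all genes. For 2 members, Slc1a3 and Dkk3, all replicates at one concentration were above all at the other, as for 31.8% of all genes. These shares were below or near those of all genes and are no result particular to the members. The median log2 fold change of the members, 25 mM against 5 mM, was -0.05, beside -0.01 over all genes tested, and single members ranged from -1.32 to 0.76. The members thus did not move as a block: 4 had positive and 6 had negative fold changes. Without replicate 1 at 5 mM, 4 members were called (Aqp4, Kcnj10 and Sox2 higher, Apoe lower), in a comparison that called 26.6% of all genes tested.

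**Figure D1:**
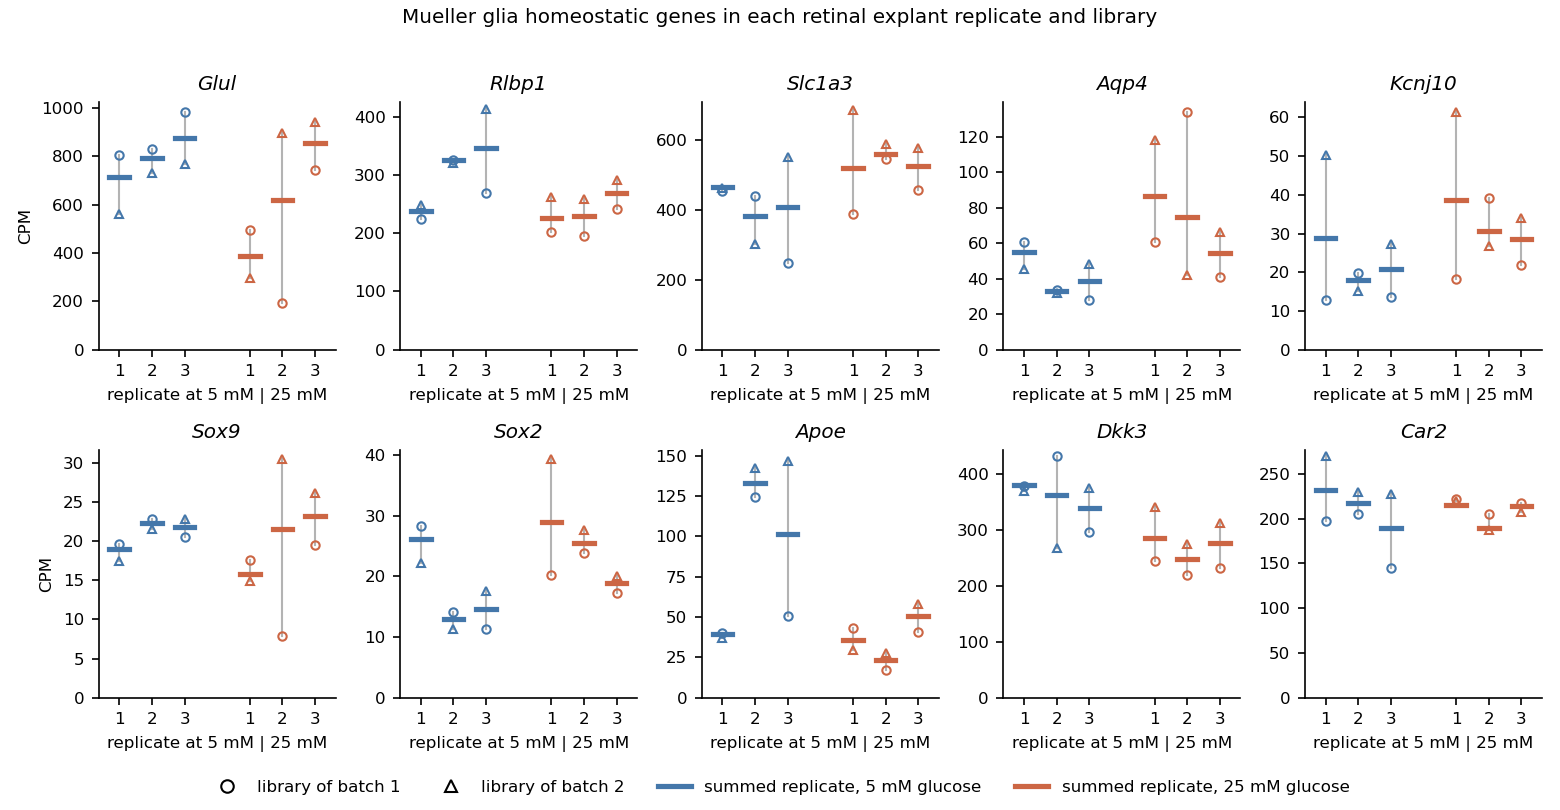
CPM (vertical axes, each from 0) of the 10 members in each replicate of retinal explants at 5 mM and 25 mM glucose; bars are the summed replicates and open symbols the libraries of batch 1 and batch 2. Slc1a3 and Dkk3 are the members whose summed replicates do not overlap, and Glul in replicate 2 at 25 mM spreads from 194 to 896 CPM between its libraries.

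The promoters of 4 members are shown because they form pairs that varied together across the libraries, Slc1a3 with Sox2 and Rlbp1 with Apoe. The pair with the highest correlation, Glul with Sox9, is not shown, as Sox9 was not searched. Sequences are 150 bases before the RefSeq start, from RefSeq on GRCm38.p6, and 6 of the 10 members were searched. The other members, Aqp4 among them, were not searched, so the matches below say nothing about them. Capitals mark the SOX core, searched as ACAAT and its reverse ATTGT because Sox9 and Sox2 are themselves members. Slc1a3 is given for chr15:8710808-8710957 and Sox2 for chr3:34649845-34649994. Rlbp1 is given for chr7:79387028-79387177 and Apoe, at the first of its 3 starts, for chr7:19699189-19699338. Sox2 lies on the plus strand and the others on the minus strand.
Slc1a3: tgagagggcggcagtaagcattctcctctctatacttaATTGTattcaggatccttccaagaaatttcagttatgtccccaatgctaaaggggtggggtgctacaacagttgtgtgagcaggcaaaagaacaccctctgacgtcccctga
Sox2: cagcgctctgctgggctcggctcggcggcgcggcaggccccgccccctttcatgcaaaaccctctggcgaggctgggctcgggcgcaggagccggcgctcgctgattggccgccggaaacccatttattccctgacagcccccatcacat
Rlbp1: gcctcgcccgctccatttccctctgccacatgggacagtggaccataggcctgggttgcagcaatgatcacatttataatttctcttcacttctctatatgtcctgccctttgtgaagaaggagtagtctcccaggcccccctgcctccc
Apoe: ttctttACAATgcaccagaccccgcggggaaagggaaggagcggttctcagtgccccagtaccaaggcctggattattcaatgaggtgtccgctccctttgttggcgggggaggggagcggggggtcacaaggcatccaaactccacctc
The SOX core occurred once in the Slc1a3 window, on the reverse strand with its far end 112 bases before the start, and once in the Apoe window, 144 bases before the start. It did not occur in the windows of Sox2 or Rlbp1, nor in those of Glul and Kcnj10. Among all 32851 promoters in the table, 17.4% held it in a window of this length. The CRX/OTX core, the RBPJ core and the TATA box were searched as well. The CRX/OTX core, TAATCC or its reverse GGATTA, occurred in the Apoe window and in 3.6% of all promoters. The TATA box, TATAAA or its reverse TTTATA, occurred in the Rlbp1 window, before the second Apoe start and in 7.57% of all promoters. The RBPJ core, GTGGGAA or its reverse TTCCCAC, occurred in no window of the members searched and in 3.13% of all promoters. These matches describe letters only, and binding was not tested. The GC content of the windows was 47.3% for Slc1a3, 54.0% for Rlbp1, 59.3% for Apoe and 69.3% for Sox2.

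Glutamate handling was represented by 2 members with fold changes of opposite sign. Gene positions here and below are those of GENCODE on GRCm38. Slc1a3 (ENSMUSG00000005360, chr15:8634124-8710764, minus strand) encodes GLAST, the main glutamate transporter of Mueller glia. It was at 464, 383 and 408 CPM at 5 mM and at 521, 559 and 525 CPM at 25 mM. Every replicate at 25 mM was above every one at 5 mM. Its log2 fold change was 0.35 ± 0.17 (SE, n = 3 per condition, 95% interval -0.03 to 0.73), with an edgeR adjusted p of 0.197. Between technical replicates the value was less even, as replicate 3 at 5 mM held libraries at 248 and 551 CPM. The fold change was 0.25 within batch 1, 0.49 within batch 2 and 0.22 with a correction for GC content and length (adjusted p = 0.197).

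Glul (ENSMUSG00000026473, chr1:153899944-153909723, plus strand) encodes glutamine synthetase, which turns the glutamate taken up into glutamine. It was the most abundant member, at 715, 793 and 879 CPM at 5 mM and at 389, 620 and 858 CPM at 25 mM. The values at 25 mM spread widely and overlapped those at 5 mM through replicate 3. On the log2 scale the difference was -0.35 ± 0.28 (SE, n = 3 per condition, 95% interval -1.0 to 0.30), with an edgeR adjusted p of 0.425. The batches differed in sign, as the fold change was -0.89 within batch 1 and 0.06 within batch 2. The term for this difference between batches had an adjusted p of 0.51 in edgeR. With only the second library of replicate 2 at 25 mM, the fold change was -0.14. Of the Glul exons, 2.8% overlap the microRNA gene Mir8114 on the same strand, and 3.5% overlap Teddm2 on the opposite one. Reads in the first stretch could belong to either gene, as could those in the second unless the counting used the strand, which no source states.

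Among 12 other genes of glutamate and GABA transport and metabolism, 0 were called in edgeR, while 1 was higher and 4 were lower at an unadjusted p under 0.05. Of all 21061 genes tested, 2784 were higher and 3268 lower at that p. The median log2 fold change of the 12 genes was -0.26, beside -0.01 over all genes. The largest differences were those of Slc6a13, a GABA transporter, at -2.14 ± 0.53 (SE, edgeR adjusted p = 0.0678), and of Slc7a11, the cystine and glutamate exchanger, at -1.33 ± 0.39 (adjusted p = 0.0838). Slc7a11 was at 1059, 630 and 714 CPM at 5 mM and at 150, 377 and 427 CPM at 25 mM. Its replicates did not overlap. Slc1a2, the glutamate transporter GLT-1, was chosen after its values were seen as the one gene of the list with a positive difference at that p. It was at 140, 112 and 111 CPM at 5 mM and at 251, 191 and 190 CPM at 25 mM, a log2 fold change of 0.80 ± 0.19 with an adjusted p of 0.0623. Photoreceptors and bipolar cells also express Slc1a2, and its part from glia was not tested.

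Both channel genes among the members had positive fold changes. Kcnj10 (ENSMUSG00000044708, chr1:172341210-172374085, plus strand) encodes Kir4.1, the inward rectifier through which Mueller glia pass potassium. It was at 29.0, 17.9 and 20.9 CPM at 5 mM and at 38.7, 30.6 and 28.6 CPM at 25 mM. Replicate 1 at 5 mM narrowly exceeded the lowest replicate at 25 mM, and the other two at 5 mM lay below all at 25 mM. The difference between conditions was, as a log2 fold change, 0.53 ± 0.24 (SE, n = 3 per condition, 95% interval -0.01 to 1.07), with an edgeR adjusted p of 0.182. The libraries of replicate 1 at 5 mM, at 12.7 CPM in batch 1 and 50.4 CPM in batch 2, differed by more than the conditions did. With its first library alone, an alternative chosen after seeing the data, the fold change of Kcnj10 was 0.91 (edgeR adjusted p = 0.0521). That was the highest value of 24 alternatives. Within batch 1 the fold change was 0.745 and within batch 2 it was 0.375, the lowest.

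Aqp4 encodes aquaporin-4, the water channel of glial endfeet (ENSMUSG00000024411, chr18:15389496-15410982, minus strand). It was at 55.3, 33.1 and 38.9 CPM at 5 mM and at 86.9, 74.7 and 54.8 CPM at 25 mM. The highest replicate at 5 mM and the lowest at 25 mM were nearly equal, so the conditions overlapped by a small margin. The log2 fold change was 0.76 ± 0.25 (SE, n = 3 per condition, 95% interval 0.19 to 1.34), the largest positive one of the 10, with an edgeR adjusted p of 0.102. It was 0.90 within batch 1 and 0.84 within batch 2. The first library of replicate 2 at 25 mM was the highest of all, at 134 CPM against 42.1 CPM in its partner, and with the partner alone the fold change was 0.54 (adjusted p = 0.333). The value also rests on how Aqp4 was counted. The gene value was 1.74 to 5.22 times the sum of its 11 annotated transcripts in the replicates, while this ratio lay between 0.863 and 1.21 for 90% of library values of all genes with enough counts. From the summed transcripts the log2 fold change was 0.32 (adjusted p = 0.535).

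Of 14 other genes of potassium, water and membrane scaffold function, 1 was called lower and 0 higher in edgeR, against 0.513% and 1.47% of all genes. The median log2 fold change was -0.12. The called gene was Kcnj2, which encodes the inward rectifier Kir2.1. It fell from 69.7, 43.4 and 70.8 CPM at 5 mM to 12.7, 24.3 and 23.1 CPM at 25 mM, a log2 fold change of -1.61 ± 0.30 (adjusted p = 0.0449). Its replicates did not overlap. With the partner library alone it was -1.45 (adjusted p = 0.133). Cells of vessels also express Kcnj2, and their markers are given below.

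Rlbp1 (ENSMUSG00000039194, chr7:79374870-79387048, minus strand) encodes CRALBP, which binds 11-cis-retinal in Mueller glia and in the retinal pigment epithelium. It was at 238, 325 and 346 CPM at 5 mM and at 226, 230 and 270 CPM at 25 mM. Replicates 2 and 3 at 5 mM were above all others, and replicate 1 lay within the range at 25 mM. Its log2 fold change was -0.33 ± 0.19 (SE, n = 3 per condition, 95% interval -0.77 to 0.12), with an edgeR adjusted p of 0.293. It was -0.39 within batch 1, -0.27 within batch 2 and -0.09 with a correction for GC content and length (adjusted p = 0.599). The summed level of 8 markers of the pigment epithelium was at most 4.09 CPM in any replicate, and its defining gene Rpe65 did not exceed 0.0868 CPM.

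Apoe (ENSMUSG00000002985, chr7:19696109-19699188, minus strand) encodes apolipoprotein E, the lipid carrier secreted by Mueller glia and also by microglia. It was at 39.7, 133 and 101 CPM at 5 mM and at 35.6, 23.5 and 50.5 CPM at 25 mM. Replicates 2 and 3 at 5 mM were high, and replicate 1 at 5 mM lay among those at 25 mM. On the log2 scale the difference was -1.32 ± 0.44 (SE, n = 3 per condition, 95% interval -2.33 to -0.31), the most negative of the 10, with an edgeR adjusted p of 0.105. It was -1.12 within batch 1 and -1.48 within batch 2. Without replicate 1 at 5 mM it was -1.68 (edgeR adjusted p = 0.0127), and without replicate 2 at 5 mM it was -0.96 (adjusted p = 0.284). With a correction for GC content and length it was -0.79 (adjusted p = 0.0517).

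Markers of other cell types are given beside Apoe. The summed level of 10 microglial markers was 303, 443 and 407 CPM at 5 mM and 127, 186 and 254 CPM at 25 mM. All 10 had negative log2 fold changes, with a median of -1.14, and 0 of 10 were called. For 10 markers of endothelial and mural cells the sums were 1105, 1831 and 1931 CPM at 5 mM and 408, 808 and 958 CPM at 25 mM, with a median log2 fold change of -1.49 and 0 of 10 called. In both lists no marker was at 0 in every replicate, and the summed replicates did not overlap between the conditions. With the partner alone, replicate 2 at 25 mM held 1107 CPM of the endothelial and mural markers, just above replicate 1 at 5 mM, and 221 CPM of the microglial ones. The 6 astrocyte markers summed to 481 to 698 CPM at 5 mM and to 373 to 446 CPM at 25 mM. Of 10 rod markers, 7 were called higher, against 1.47% of all genes. The 10 summed to 3341 to 5563 CPM at 5 mM and to 8891 to 12530 CPM at 25 mM. Replicate 2 at 25 mM contributes to this through the library that stood apart, as its partner alone held 5161 CPM of rod markers, within the range at 5 mM, and no gene was called with that partner alone. The part of these cell types in the values of the members was not tested.

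Among 12 other genes of retinoid and lipid handling, 1 was called lower and 0 higher, against 0.513% and 1.47% of all genes. The median log2 fold change of these 12 genes was -0.32. The called gene was Lpl, lipoprotein lipase, at 99.8, 140 and 125 CPM at 5 mM and at 44.2, 65.1 and 52.8 CPM at 25 mM. It fell by 1.17 ± 0.21 on the log2 scale (adjusted p = 0.0400). With the partner library alone the value was -1.11 (adjusted p = 0.129). Fabp7, the brain fatty acid binding protein, was at 9.52, 7.83 and 8.91 CPM at 5 mM and at 3.27, 3.70 and 4.36 CPM at 25 mM. Its log2 fold change was -1.21 ± 0.25, just short of the threshold (adjusted p = 0.0516). Both genes had replicates that did not overlap.

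The glial factors among the members differed little or unevenly. Sox9 (ENSMUSG00000000567, chr11:112782224-112787760, plus strand) encodes a factor needed for glial fate. It was at 19.0, 22.3 and 21.8 CPM at 5 mM and at 15.9, 21.5 and 23.2 CPM at 25 mM. The ranges overlapped in full, and the log2 fold change was -0.06 ± 0.21 (SE, n = 3 per condition, 95% interval -0.55 to 0.43, edgeR adjusted p = 0.871). Its sign differed between batches, at -0.51 in batch 1 and 0.22 in batch 2, a difference with an adjusted p of 0.519 in edgeR. Replicate 2 at 25 mM held 7.83 CPM in its first library and 30.4 CPM in its second, and with the second alone the fold change was 0.15.

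Sox2 (ENSMUSG00000074637, chr3:34650405-34652461, plus strand) encodes a factor that keeps glia quiescent and is also made by some amacrine cells. It was at 26.2, 13.0 and 14.7 CPM at 5 mM and at 28.9, 25.6 and 18.9 CPM at 25 mM. Replicate 1 at 5 mM was the exception among low values, and the conditions overlapped because of it. The difference between conditions was, as a log2 fold change, 0.45 ± 0.31 (SE, n = 3 per condition, 95% interval -0.26 to 1.15), with an edgeR adjusted p of 0.355. Without that replicate it was 0.82 (adjusted p = 0.0368). It was 0.15 within batch 1 and 0.75 within batch 2, and 0.25 without replicate 2 and 0.31 without replicate 3 at 5 mM. The summed level of 8 amacrine markers was 451 to 542 CPM at 5 mM and 279 to 414 CPM at 25 mM, while the median log2 fold change of those tested was -0.01 and 0 were called. Their part in the value of Sox2 was not tested.

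Of 16 other glial transcription factors and Notch genes, 1 was called higher and 0 lower, against 1.47% and 0.513% of all genes. Fold changes were negative for 14 of 16, against 10675 of 21061 over all genes. The median log2 fold change was -0.61. Rax, the retinal homeobox factor kept by Mueller glia after development, was the called gene. It rose from 6.63, 9.12 and 7.32 CPM at 5 mM to 20.7, 17.4 and 16.8 CPM at 25 mM. The log2 fold change of Rax was 1.25 ± 0.23 (edgeR adjusted p = 0.0431), and 1.17 with the partner library alone (adjusted p = 0.129). Its part from glia was not tested. Id3, an inhibitor of basic helix-loop-helix factors, had a log2 fold change of -1.68 ± 0.53 (adjusted p = 0.0954). Its values were 4.88, 15.0 and 13.2 CPM at 5 mM and 2.18, 2.33 and 5.79 CPM at 25 mM, with replicate 1 at 5 mM within the range at 25 mM.

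Dkk3 (ENSMUSG00000030772, chr7:112116017-112159057, minus strand) encodes a secreted protein of the Dickkopf family. It was at 380, 362 and 338 CPM at 5 mM and at 285, 248 and 277 CPM at 25 mM. Every replicate at 5 mM was above every one at 25 mM, and its SD of log2 CPM at 5 mM, 0.08, was the smallest of the 10 members. The log2 fold change was -0.42 ± 0.16 (SE, n = 3 per condition, 95% interval -0.78 to -0.06), with an edgeR adjusted p of 0.133. It was -0.70 within batch 1 (adjusted p = 0.0605) and -0.13 within batch 2. The term for this difference between batches had an adjusted p of 0.385 in edgeR.

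Car2 (ENSMUSG00000027562, chr3:14886273-14900770, plus strand) encodes carbonic anhydrase 2, which buffers carbon dioxide and bicarbonate. It was at 232, 217 and 189 CPM at 5 mM and at 216, 189 and 214 CPM at 25 mM. The ranges were nearly the same, and the log2 fold change was -0.04 ± 0.16 (SE, n = 3 per condition, 95% interval -0.41 to 0.32, edgeR adjusted p = 0.873). It was 0.21 within batch 1 and -0.25 within batch 2, a difference between batches with an adjusted p of 0.304 in edgeR. Red blood cells also hold Car2. The 6 erythrocyte markers summed to at most 1.78 CPM, with Slc4a1 at 0 in every replicate.

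**Figure D2:**
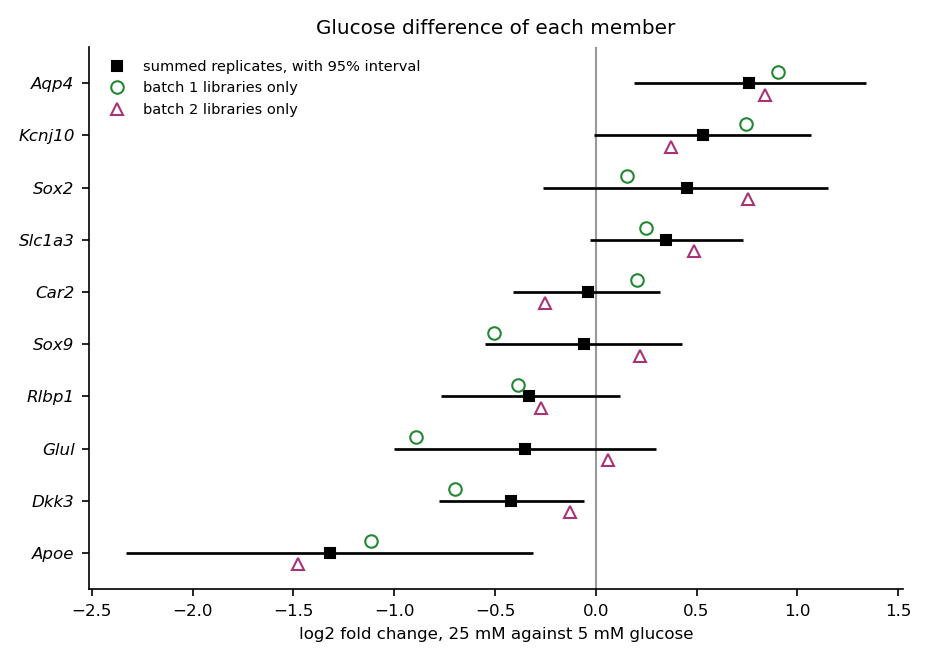
Log2 fold change, 25 mM against 5 mM glucose (horizontal axis), of each member, with squares and lines for the summed replicates and their 95% intervals, circles for batch 1 and triangles for batch 2. The intervals of Aqp4, Dkk3 and Apoe do not hold 0, and the batches fall on opposite sides of 0 for Glul, Sox9 and Car2.

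Of 20 genes of adhesion, junctions and secretion, 17 were tested. Among these, 1 was called higher and 0 lower, against 1.47% and 0.513% of all genes. The called gene was Cyp26a1, which degrades retinoic acid, at 1.36, 0.905 and 0.979 CPM at 5 mM and at 3.90, 3.39 and 2.87 CPM at 25 mM. It rose by 1.64 ± 0.29 on the log2 scale (adjusted p = 0.0420) from a low level, and by 1.57 with the partner library alone (adjusted p = 0.129). Gja1, connexin 43 of glial gap junctions and also of astrocytes and vessels, had a log2 fold change of -1.86 ± 0.47 (adjusted p = 0.0696). Its values were 147, 95.2 and 132 CPM at 5 mM and 13.6, 29.8 and 59.9 CPM at 25 mM, without overlap.

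Genes of reactive gliosis, which are known to rise in injured Mueller glia as homeostatic genes fall, were compared as a further list. Of 15 such genes, 1 was called higher and 0 lower, against 1.47% and 0.513% of all genes. Fold changes were negative for 14 of 15, against 10675 of 21061 over all genes, and the list median was -0.49. The called gene was Edn2, endothelin 2, which stressed photoreceptors are known to make rather than glia. It was at 11.6, 10.9 and 7.36 CPM at 5 mM and at 45.7, 31.9 and 40.9 CPM at 25 mM, a log2 fold change of 1.99 ± 0.25 (adjusted p = 0.0261), and 1.82 with the partner library alone (adjusted p = 0.129). Vim, the intermediate filament vimentin of Mueller glia and also of vessels, was at 1264, 2204 and 2209 CPM at 5 mM and at 472, 590 and 926 CPM at 25 mM. Its log2 fold change of -1.51 ± 0.33 did not pass (adjusted p = 0.0555), though its replicates did not overlap.

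**Figure D3:**
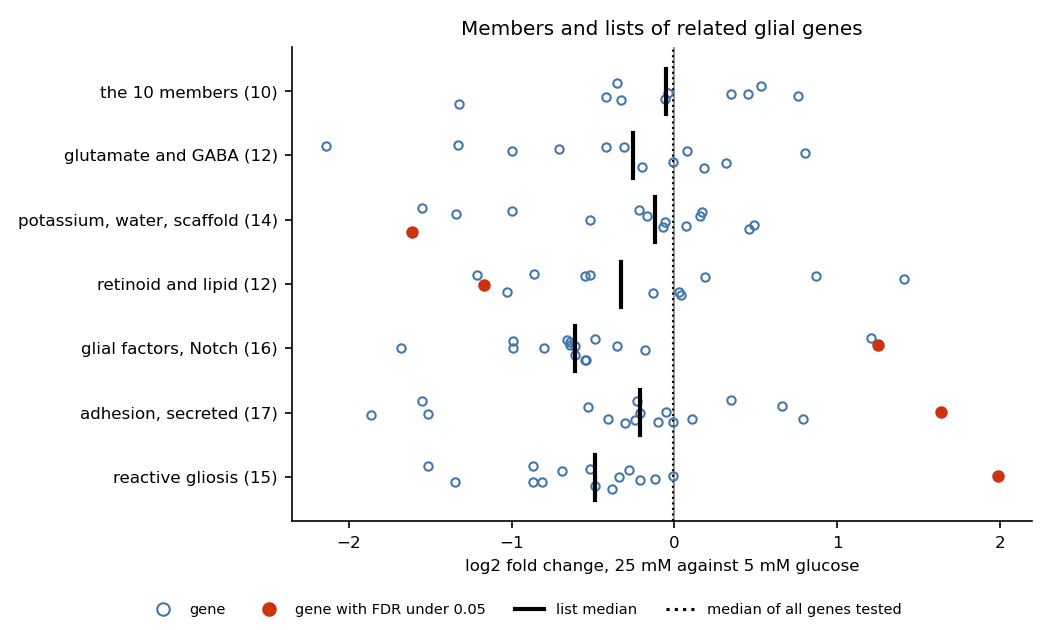
Log2 fold change, 25 mM against 5 mM glucose (horizontal axis), of the 10 members and of the tested genes of 6 lists of related glial genes, 1 circle per gene, with filled circles for an FDR under 0.05. The members' median of -0.05 lies next to the dotted median of all genes, and no member is filled.

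Per unit of exon length, scaled to the same total over all genes in each replicate (TPM), the members spanned a wide range. At 5 mM the mean levels were 743 ± 106 for Glul (SD, n = 3), 332 ± 24.6 for Dkk3, 320 ± 76.0 for Rlbp1, 272 ± 29.4 for Car2, 151 ± 5.11 for Slc1a3 and 136 ± 77.3 for Apoe. Sox2 (26.5 ± 8.83), Aqp4 (20.8 ± 4.21), Sox9 (15.8 ± 2.38) and Kcnj10 (12.8 ± 2.35) were at the low end. The ranges of the replicates overlapped between all neighbours in this order except Glul and Dkk3, Car2 and Slc1a3, and Apoe and Sox2. At 25 mM Glul was again first, at 612 ± 239, followed by Car2, Rlbp1, Dkk3 and Slc1a3, the last at 205 ± 13.8. Apoe was at 57.1 ± 24.4, with a range that overlapped that of Sox2, at 39.1 ± 9.63. The order depends on the counts and lengths used. A second measure divided the transcript counts by transcript length and scaled them to their own total. In it, Slc1a3 at 25 mM was at 282 ± 14.2 and its rank 2 rather than 5. Dkk3 at 5 mM was then at 201 ± 11.2, rank 4 rather than 2, while Aqp4 was at 10.5 ± 2.54 and Kcnj10 at 7.80 ± 1.68. The lengths of Dkk3 and Kcnj10, 3359 and 5407 bases, are the same in both measures. For Aqp4 the transcript counts hold only a part of the gene value.

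Across the 12 libraries the members did not vary as 1 group. These libraries come in pairs from the same replicate and share batches, so the correlations of log2 CPM below are descriptions. Of 45 pairs of members, 13 had a Pearson r above 0.5 and 19 were negative, with a median of 0.13. Glul and Sox9 had the highest r, 0.91 (Spearman's rho 0.82), which was 0.70 without the 2 libraries farthest from the median of Glul. It was 0.58 over the 6 libraries at 5 mM and 0.95 over those at 25 mM. Rlbp1 and Apoe had an r of 0.85, with 0.91 at 5 mM and 0.53 at 25 mM. Slc1a3 and Sox2 had an r of 0.80, which was 0.58 without the 2 libraries farthest from the median of Slc1a3. Aqp4 and Sox2 had an r of 0.76.

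The lowest pair was Glul and Aqp4, with an r of -0.83 that was -0.30 without the 2 farthest libraries. The negative relation rests largely on the libraries with low Glul, among them the first library of replicate 2 at 25 mM, where Aqp4 was at 134 CPM. Glul, Sox9, Rlbp1 and Apoe were positively correlated with one another, and so were Slc1a3, Kcnj10, Sox2 and Aqp4. Every pair between these sets was negative, but some were near 0, as Rlbp1 with Slc1a3 (-0.01) and with Kcnj10 (-0.05). Aqp4 with Sox9 went from -0.70 to -0.039 without the 2 libraries farthest from the median of Aqp4. The sets were drawn from these same libraries and only describe them. Genes outside the 10 that most resembled the members' mean standardised log2 CPM over the 12 libraries were St8sia2 (r = 0.87), Aldh1a1 (0.86), Mylip (0.84), Lypd1 (0.84) and Garem1 (0.83). None of these 5 was called, with adjusted p from 0.234 to 0.912 in edgeR. Members followed the mean of the other members less closely, with r from -0.12 for Aqp4 to 0.52 for Dkk3. Likeness to the mean is thus not likeness to each member.

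**Figure D4:**
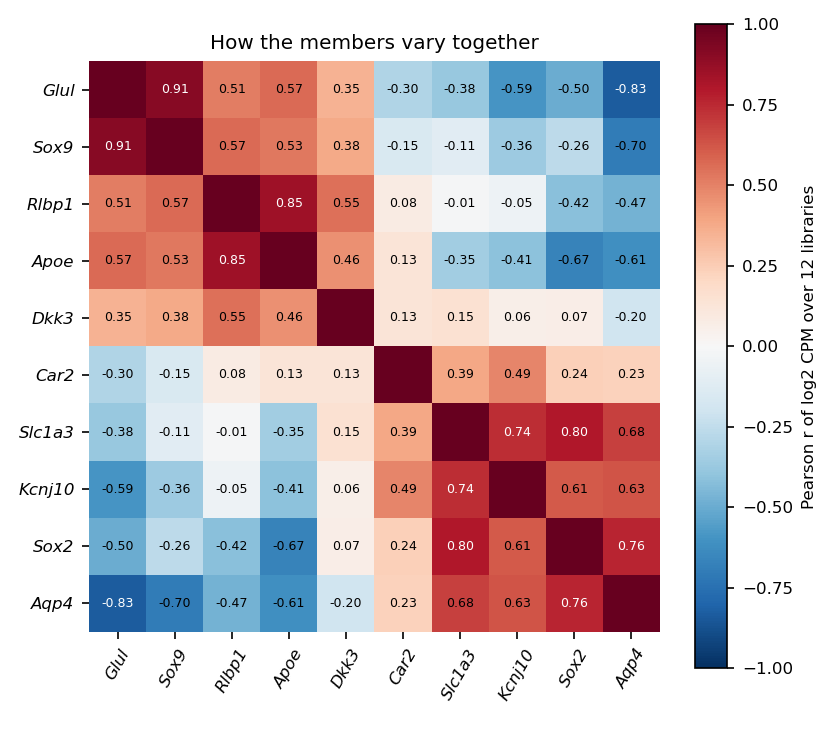
Pearson r of log2 CPM over 12 libraries for each pair of members, from -1 (blue) to 1 (red). Glul with Sox9 (0.91) and Rlbp1 with Apoe (0.85) stand in the upper left block, and Slc1a3, Kcnj10, Sox2 and Aqp4 in the lower right. The cells between these blocks are negative, from -0.83 to -0.01.

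The transcript table allowed a look at the members' isoforms, as shares of a gene's estimated transcript counts. Kcnj10, Sox9, Sox2 and Dkk3 have 1 annotated transcript each and the other 6 have several. The leading transcript, that with the highest share over all replicates, had replicates that did not overlap between conditions in 4 of these 6, against 18.7% of 12143 genes with enough counts. Such shares are estimates from short reads that several transcripts share.

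Glul-201 held 96.3% ± 0.354 of Glul counts at 5 mM and 94.4% ± 1.08 at 25 mM (SD, n = 3). Rlbp1 was divided between coding transcripts of nearly equal length, 2142 bases for Rlbp1-202 and 2134 bases for Rlbp1-201. Rlbp1-202 held 52.3% ± 5.05 at 5 mM and 46.4% ± 1.73 at 25 mM, and the nearest replicates of the conditions lay less than 1 percentage point apart. It led over all replicates and at 5 mM, while at 25 mM Rlbp1-201 held more, 51.5% ± 2.25. Slc1a3-201 went the other way, from 89.5% ± 1.26 to 91.5% ± 0.130. Car2-201 held 99.3% ± 0.229 at 5 mM and 98.5% ± 0.189 at 25 mM. The differences were thus small, and for Glul, Slc1a3 and Car2 under 2 percentage points.

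Retained-intron transcripts, which keep an intron and are not annotated as coding, were minor in most members. In Rlbp1 the retained-intron share was 0.705%, 0.460% and 0.764% at 5 mM and 1.89%, 1.27% and 1.01% at 25 mM. In Car2 it was 0.921%, 0.556% and 0.473% at 5 mM and 1.44%, 1.69% and 1.32% at 25 mM. In both genes every replicate at 25 mM was above every one at 5 mM. The same held for the retained-intron transcript Glul-205, at 0.369%, 0.308% and 0.264% at 5 mM and 0.618%, 0.420% and 0.448% at 25 mM. In Slc1a3 the share of all transcripts without a coding sequence was lower at 25 mM, at 8.12% on average against 9.97%, also without overlap. How many of all genes separate in such shares was not computed, so none of these is a result particular to the members. The Aqp4 shares cover only the part of its gene value held by annotated transcripts and are not compared further. In Apoe the processed transcript Apoe-202 held 14.3% and 11.0% in replicates 2 and 3 at 5 mM, the ones with high Apoe, and 0.00103% or less in the other 4 replicates.

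**Figure D5:**
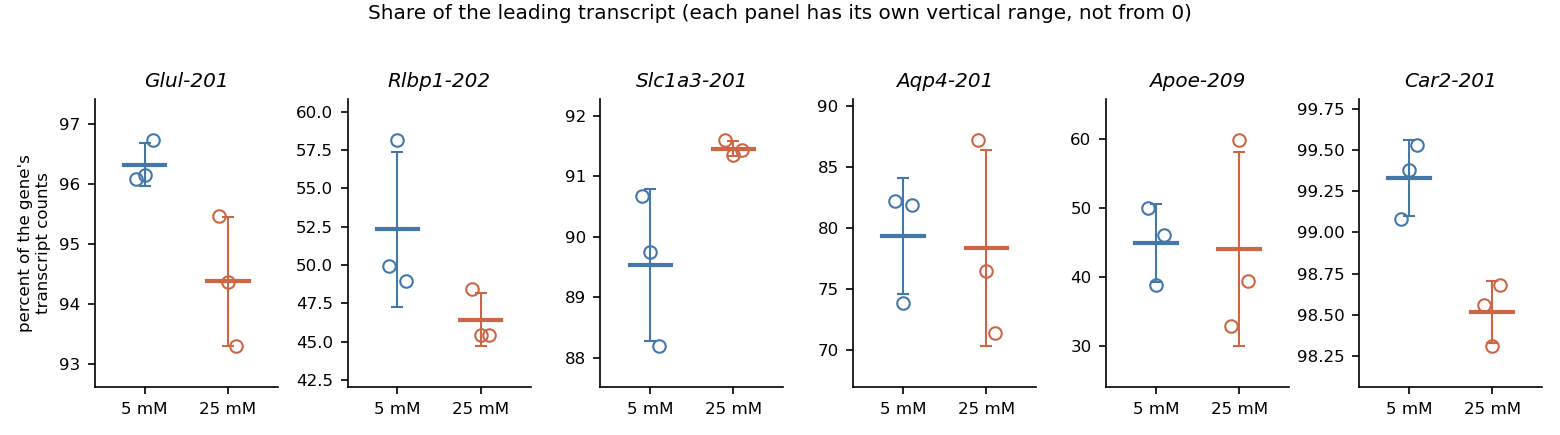
Share of the leading transcript (vertical axes in percent, each with its own range) for the 6 members with several transcripts, with 1 circle per replicate, bars for the mean and error bars for the SD of 3 replicates. The conditions are separate for Glul-201, Rlbp1-202, Slc1a3-201 and Car2-201 and overlap for Aqp4-201 and Apoe-209.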

How the data were processed

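RNA was measured in 12 libraries of mouse retinal explants, made with a stranded total RNA kit from 4 ng of RNA with 13 PCR cycles and sequenced as read pairs of 101 bases. The authors deposited expected counts (estimated counts) of 53707 genes and of 146263 transcripts, with technical replicates apart and without normalization; 0 sample columns were left unused. The submitters' processing notes name GRCm38, and the counting tool and annotation are not given in the sources used here. Since 100% of the gene values above 0 are fractional, they were rounded once the technical replicates had been added, for use in a count test.

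Symbols, positions and transcript types came from GENCODE M21 (GRCm38), which matched 48766 genes and 134543 transcripts. Promoters came from RefSeq tables of GRCm38.p6. The 2 conditions, with 3 replicates each, were compared in edgeR 4.0.16 under R 4.3.3, with filterByExpr, TMM factors and the quasi-likelihood test as in its version 3. P-values were two-sided and adjusted by Benjamini-Hochberg over 21061 genes, and a gene was called at an FDR under 0.05. CPM values were scaled by TMM, and a prior count of 2 was added before taking log2. The biological coefficient of variation was 0.297. Depth bears on counting error alone, because PCR copies were not told apart by molecular identifiers. An exact permutation test of 3 against 3 was not used, as it cannot reach 0.05. Transcript shares needed 60 counts of the gene in every replicate. The procedure was tested on simulated data.

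The members, the lists of related genes and the cell markers were chosen with earlier results of these data known, so no count over them is independent evidence. Named beside the 10 members were, from each list, called genes and the 2 largest differences at a mean of at least 1 CPM, and the 5 genes most correlated with the members' mean. One gene that this rule names is not reported here. The CPM filter, other scalings, tools, filters, batches, blocks, corrections and omissions tried are given with the closing observations, DESeq2 1.42.0 and limma 3.58.1 among them. Figures were drawn with matplotlib 3.10.9 under Python 3.11.15.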

Additional observations from a re-analysis of the deposited data

Results flagged for a closer look

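Each member was tested for a library far from the other 5 of its condition, in 20 groups of 6 libraries. None of the 20 groups passed Dixon's 95% critical value. About 1 in 20 groups passes by chance when the values are independent, which these are not, since the 6 libraries are pairs from 3 replicates.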

How the results depend on the processing

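Each of the 10 fold changes was recomputed under 24 alternatives, 240 values in all: 217 kept their direction and stayed uncalled, 11 were called at an FDR under 0.05 in the same direction, and 12 changed sign. Members called numbered 0 in the main comparison and 1 with DESeq2 (Apoe, 16.6% of all genes called), 1 without the filter on low counts (Apoe, 5.63%), 1 with 12 libraries and a batch term (Apoe, 15.6%), 1 with a correction for GC content and length (Aqp4, 12.3%) and 3 with that correction and the replicate block (Aqp4, Kcnj10 and Apoe, 15.0%). At an unadjusted p under 0.05 the count was 3. Leaving out 1 replicate gave 0 to 4 members, with 4 only without replicate 1 at 5 mM. The median fold change of the members was -0.052 in the main comparison and ranged from -0.125 to 0.138 over the alternatives, so its sign was not stable. The SD between replicates within conditions of the members' median log2 CPM was 0.240. That value describes levels and is no measure of the spread of a median fold change. Glul changed sign in batch 2 alone (0.06). Sox9 did so in batch 2 alone (0.217), with replicate 2 at 25 mM from its second library (0.15, an alternative chosen after seeing the data) and without replicate 1 at 25 mM (0.095), the leave-one-out range being -0.175 to 0.095. Car2, near 0 throughout, changed sign with library totals (0.018), with CPM over 1 in at least 3 replicates (0.005), in batch 1 alone (0.206), with the GC and length correction (0.058), with that and the block (0.063), with replicate 1 at 5 mM from its first library (0.020, also chosen after seeing the data) and in 2 omissions (range -0.134 to 0.025). For Aqp4, transcript counts gave 0.319. The cause of these shifts was not tested.

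The labels do not say whether the replicate numbers pair the samples. Same-numbered samples correlated at -0.014, -0.449 and 0.285 in their deviations from the group means, which with 3 replicates per condition cannot decide it. With the replicate block, 0 members and 4.7% of all genes were called, against 1.98% without it, and the median of the members was -0.059. The 5 called genes of the related lists kept their direction in all 24 alternatives and were called in 16 to 18 of them.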
